A study of Mus musculus with 4 samples.

Results

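The genes described here are 7 genes of the inflammatory response, namely the cytokine genes Il1b and Tnf, the IL-1 receptor antagonist gene Il1rn and the NF-kB genes Nfkbia, Nfkbiz, Nfkb1 and Tnfaip3, measured in bone marrow classical monocytes of young and old mice. They were taken by symbol from the gene expression rows, and all 7 were found among the 27998 genes of each of the 2 libraries. The monocytes were wild-type C57BL/6 Ly6G-CD11b+CD115+Ly6Chi cells, and the marrow of each mouse bore its own hashtag antibody before the marrows were pooled and sorted. The male pool held 5 young (14 weeks) and 5 old (27 months) mice and the female pool 5 young (15 weeks) and 5 old (26.5 months) mice. Each pool was 1 library, so sex and library cannot be told apart, and the comparison made was old against young within a pool, with the mouse as the replicate.

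NF-kB is a family of dimeric transcription factors that IkB proteins hold in the cytoplasm until signals from Toll-like, IL-1 or TNF receptors lead to the breakdown of the IkB. Nfkbia encodes IkB-alpha, the inhibitor that NF-kB itself induces and that ends the response, Tnfaip3 encodes the ubiquitin-editing enzyme A20, a second inducible brake, and Nfkbiz encodes the nuclear protein IkB-zeta, which helps to switch on a part of the late targets. Nfkb1 encodes p105, the precursor of the p50 subunit. Monocytes are a main source of IL-1 beta and TNF, and Il1rn encodes a secreted protein that occupies the IL-1 receptor without signalling.

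All 7 are protein-coding genes, and on GRCm38 Nfkbia lies on chromosome 12 (55489410 to 55492647, minus strand), Il1b on chromosome 2 (129364570 to 129371139, minus strand) and Tnf on chromosome 17 (35199381 to 35202007, minus strand). Il1rn lies on the plus strand of chromosome 2 (24336853 to 24351494), Nfkb1 on chromosome 3 (135584655 to 135691547), Nfkbiz on chromosome 16 (55811375 to 55838899) and Tnfaip3 on chromosome 10 (19000910 to 19015657). The bases just upstream of the start sites are shown for the 2 genes that passed the test below with a rise in old females and for Tnf, which did not pass. RefSeq start sites (GRCm38.p6) were listed for 5 of the 7 genes, and the 250 bases before each were searched on both strands for the NF-kB consensus, which is marked in capitals. The window of Nfkbia at chr12:55492648-55492897 had 1 match, on the strand opposite to the gene, from 29 to 20 bases before the start site, whereas the windows of Il1b at chr2:129371140-129371389 and of Tnf at chr17:35202008-35202257 had none. All are given 5′ to 3′ on the strand of the gene.
Nfkbia: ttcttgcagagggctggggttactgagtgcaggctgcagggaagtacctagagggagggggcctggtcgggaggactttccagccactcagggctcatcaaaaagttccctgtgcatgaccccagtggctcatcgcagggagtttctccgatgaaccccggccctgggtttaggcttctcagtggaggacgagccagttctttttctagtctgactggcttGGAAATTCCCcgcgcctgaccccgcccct
Il1b: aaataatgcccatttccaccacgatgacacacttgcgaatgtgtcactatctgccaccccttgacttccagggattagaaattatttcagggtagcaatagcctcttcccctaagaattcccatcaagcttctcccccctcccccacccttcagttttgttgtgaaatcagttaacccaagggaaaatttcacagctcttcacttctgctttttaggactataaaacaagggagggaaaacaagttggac
Tnf: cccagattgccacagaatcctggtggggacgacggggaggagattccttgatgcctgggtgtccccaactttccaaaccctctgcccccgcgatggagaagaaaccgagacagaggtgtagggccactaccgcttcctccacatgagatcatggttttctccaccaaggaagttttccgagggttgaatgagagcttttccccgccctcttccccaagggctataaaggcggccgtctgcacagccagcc
Of 2 windows listed for Tnfaip3, 1 had matches at 2 positions, and none of the 3 windows of Il1rn had a match. A match stood in 7.25% of all 32817 windows listed. These matches describe letters in a short window, and nothing was measured at them.

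The analysis used 1227 male and 6641 female cells, and no barcode was shared between the pools. Mice had 49 to 206 cells in males and 259 to 1592 in females. Median UMIs per cell were 3806 to 8844 in males and 7978 to 13033 in females. Within females every old mouse (9699.5 to 13033) exceeded every young one (7978 to 8990). Within males, too, every old mouse (4489.5 to 8844) exceeded every young one (3805.5 to 4455.5). The 7 genes together held 0.0283% of the male and 0.0309% of the female UMIs. The 7 markers of classical monocytes summed to 4100 to 6908 CPM in males. In females they were higher in old mice, at 5850 to 7736 CPM against 5405 to 5726 in young mice, without overlap (exact permutation p = 0.0079). Markers of dendritic-like monocytes (Cd209a and MHC-II genes) summed to 1038 to 7952 CPM in old and 493 to 976 in young females. In old females the lists of B cells (17.4 to 31.8 against 29.7 to 37.0 CPM) and of conventional dendritic cells (10.2 to 46.2 against 41.8 to 60.0 CPM) were lower and that of plasmacytoid dendritic cells was higher (197 to 299.5 against 177 to 208 CPM), and the remaining lists of cell types had an exact permutation p of at least 0.111 in females. Cd209a is in both the dendritic-like and the conventional dendritic list, so it made up at most 46.2 CPM of the dendritic-like sum in an old female. The neutrophil list ranged from 304 to 16170 CPM in old and from 386 to 10886 CPM in young males (exact permutation p = 0.365). Of the male cell type lists, only that of macrophages had an exact permutation p under 0.05 (1.80 to 63.9 CPM in old, 0 to 17.5 in young, p = 0.0397). Immediate early genes such as Fos and Jun, which rise when cells are handled, summed to 1044 to 1289 CPM in old and 1459 to 1695 in young females, so they were lower in the group where Nfkbia was higher. Their part and that of the other markers in the results below was not tested.

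In females, Nfkbia and Il1b rose with age, whereas Tnf, Il1rn, Nfkbiz, Nfkb1 and Tnfaip3 did not pass the test. Nfkbia also passed with any 1 mouse left out, whereas Il1b then did not pass in 7 of 10 cases. Nfkbia was 1.70-fold higher by the means of old and young mice and Il1b 2.495-fold higher. In males none of the 3 members with enough counts passed, and the age effects of the pools did not differ past the threshold for any of the 6 members tested. The RNA level was the UMI count summed over the cells of a mouse, as CPM with TMM scaling, and the test was the quasi-likelihood test of edgeR, two-sided, with Benjamini-Hochberg adjustment over all genes tested. In females all 7 members were tested and 2 passed an adjusted p of 0.05, both upward, where 3.42% of the 10074 genes tested passed (2.03% upward and 1.4% downward).

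**Figure D1:**
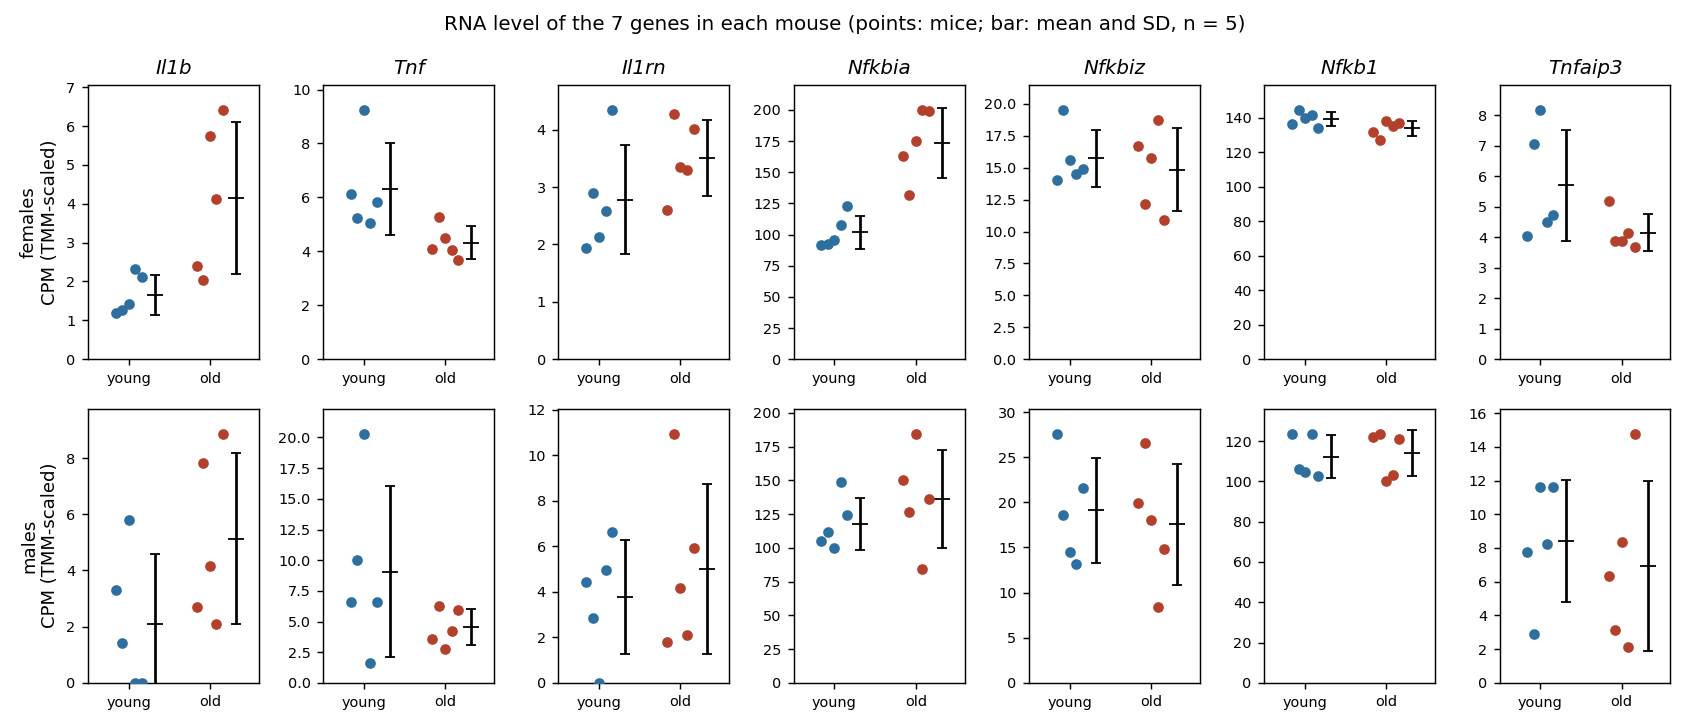
RNA level (CPM, linear axes that start at 0 and differ between panels) of each gene in each mouse, females above and males below, with young mice in blue and old mice in red. Bars give the mean and SD of 5 mice. Nfkbia in females is the only panel without overlap, with old mice at 132 to 200.1 CPM and young mice at 91.5 to 123 CPM.

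Il1b, the gene of the pro-inflammatory cytokine IL-1 beta, was sparse. Its levels in the 5 old females were 2.41, 2.03, 5.73, 4.13 and 6.42 CPM, and in the 5 young females 1.19, 1.27, 1.42, 2.31 and 2.11 CPM. Of the old mice, 4 were above every young mouse, and old female 2 overlapped with the young. The change was 1.24 on the log2 scale (SE 0.30, edgeR adjusted p = 0.032), and it rested on 173 UMIs in old and 78 in young mice. Without any 1 of old mice 3 and 5 or of the 5 young mice the change kept its direction (1.08 to 1.47) but the adjusted p rose to between 0.0501 and 0.0930. When every female barcode was given to its leading hashtag, doublets and negatives included, the adjusted p was 0.0733 (log2 change 1.06), and after thinning or drawing the cells down to the male number the gene fell under the count filter.

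Tnf, the gene of tumour necrosis factor, stood at 4.08, 5.28, 4.50, 4.04 and 3.69 CPM in old females and at 6.12, 5.25, 9.25, 5.06 and 5.84 CPM in young females. The old mice were mostly lower and overlapped with the young. The log2 change was -0.46 (SE 0.17, unadjusted p = 0.0154), which did not pass after edgeR adjustment (adjusted p = 0.167), nor when any mouse was left out (0.150 to 0.286). Il1rn, the antagonist, stood at 2.59, 4.27, 3.35, 3.31 and 4.01 CPM in old females and at 1.94, 2.89, 2.13, 2.58 and 4.35 CPM in young females, with a log2 change of 0.28 (SE 0.22, edgeR adjusted p = 0.572). The highest value was that of a young mouse.

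The balance of antagonist and agonist was read within each mouse as the log2 ratio of Il1rn to Il1b (each as CPM + 1). In females it was -0.12 ± 0.58 in old and 0.49 ± 0.29 in young mice (mean ± SD, n = 5 each). It was above 0 in 5 of 5 young and 2 of 5 old mice, and the difference of -0.61 did not pass (two-sided exact permutation p = 0.0873). With 1 mouse left out the difference was -0.84 to -0.48 (exact permutation p = 0.0159 to 0.143), and it passed in 1 of these 10 cases, without old female 2. In males it was -0.10 ± 0.38 in old and 0.75 ± 2.27 in young mice (exact permutation p = 0.357, n = 5 each). There 3 young mice had a gene of the pair at 0 UMIs, so that their ratio was set by the added 1, and with 1 mouse left out the difference was -1.72 (without young male 3, exact permutation p = 0.0159) to -0.30 (p = 0.683).

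Nfkbia, the IkB-alpha gene, stood at 163, 132, 175, 200.1 and 199 CPM in old females and at 91.5, 92.6, 95.7, 107 and 123 CPM in young females. Every old mouse was above every young one, which held for 3.38% of all genes tested. The log2 change was 0.76 (SE 0.10, edgeR adjusted p = 8.6e-04), and it ranked 25 by p among 10074 genes. It passed under every alternative tried, with log2 changes of 0.71 to 0.84 when 1 mouse was left out, 0.54 when every barcode was given to its leading hashtag and 0.70 without the cells of the MHC-II-high cluster described below. The rise showed both in the share of cells with an Nfkbia UMI, 80.4% ± 6.3 in old and 61.3% ± 4.4 in young females, and in the level among positive cells, at 2.501 ± 0.22 against 2.00 ± 0.12 UMIs per 10000 UMIs of the cell (means ± SD, n = 5 each). These shares are not corrected for depth, and the values at equal depth are given below.

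The other NF-kB genes showed smaller differences. Nfkbiz (IkB-zeta) ranged from 10.9 to 18.7 CPM in old and from 14.0 to 19.5 CPM in young females, with a log2 change of -0.03 (SE 0.14, edgeR adjusted p = 0.960). Nfkb1 (p105 and p50) was even among mice, from 127 to 138 CPM in old and from 134 to 145 CPM in young females, with a log2 change of -0.06 (SE 0.04, edgeR adjusted p = 0.517). Tnfaip3 (A20) ranged from 3.69 to 5.19 CPM in old and from 4.03 to 8.18 CPM in young females, with a log2 change of -0.35 (SE 0.19, edgeR adjusted p = 0.388). The 2 inducible brakes on NF-kB thus gave estimates of opposite sign, that of Nfkbia being past the threshold and that of Tnfaip3 not.

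**Figure D2:**
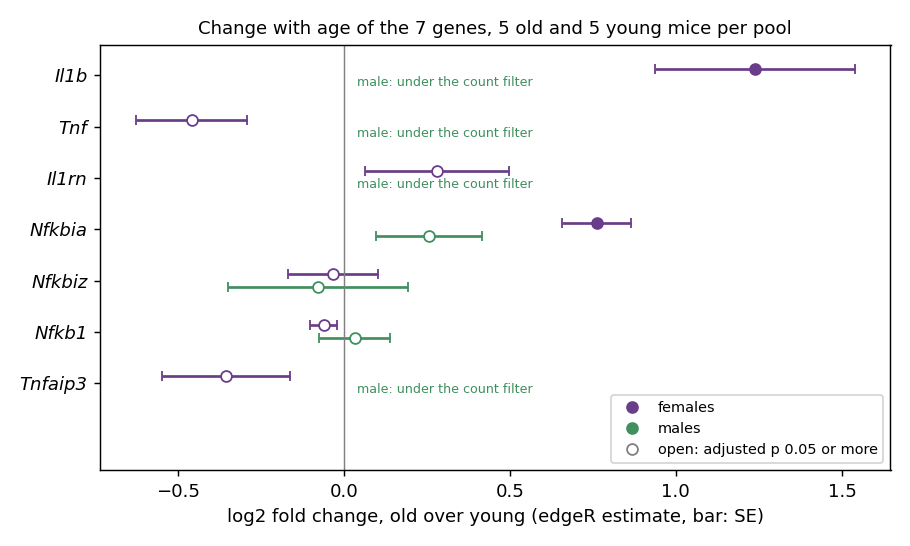
Log2 fold change of old over young mice (x axis, edgeR estimate with its SE) for each gene in females (purple) and males (green), filled where the adjusted p was under 0.05. Il1b at 1.24 and Nfkbia at 0.76 in females are filled, and the open male symbols lie between -0.08 and 0.26.

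Male libraries were smaller, with 23 Il1b, 46 Tnf, 28 Il1rn and 50 Tnfaip3 UMIs in all, and these 4 genes did not pass the filter on low counts. Il1b stood at 2.71, 7.82, 4.16, 2.11 and 8.87 CPM in old males and at 3.31, 1.43, 5.81, 0 and 0 CPM in young males, and the groups overlapped. Tnf ranged from 2.78 to 6.26 CPM in old and from 1.65 to 20.3 CPM in young males. Nfkbia stood at 150, 127, 185, 84.4 and 136 CPM in old males and at 105, 112, 100, 148 and 124 CPM in young males, and the lowest value was that of an old mouse. Its log2 change was 0.26 (SE 0.16, edgeR adjusted p = 0.584), with Nfkb1 at 0.03 (SE 0.11, adjusted p = 0.944) and Nfkbiz at -0.08 (SE 0.27, adjusted p = 0.948). In males, 0% of 5656 genes passed by edgeR (618 at an unadjusted p under 0.05, and 23 genes of those DESeq2 tested), so the absence of a member is no result about the members.

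The difference of the age effects between the pools was tested as an interaction over all 20 mice. Of the 6 members tested none passed, where 0.0225% of 8893 genes did, and 1 of the 6 had an unadjusted p under 0.05, as did 5.93% of the genes. For Nfkbia the change was larger in females by 0.50 on the log2 scale (SE 0.20, unadjusted p = 0.0215, edgeR adjusted p = 0.750). For Il1b the difference was 0.22 (SE 0.87, edgeR adjusted p = 1.0). The age effects of these genes were thus not shown to differ between the pools. Male cells were chosen by their leading hashtag and female cells as hashtag singlets, and the difference was not tested with the same rule in both pools.

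Old cells were deeper, so the percentage of cells positive for a gene (1 UMI or more) was also computed as its expectation after each cell was thinned to 2000 UMIs, with shallower cells left out. In females Nfkbia was then detected in 27.2, 24.6, 31.3, 33.5 and 34.0% of the cells of old mice and in 18.2, 19.0, 19.8, 21.2 and 23.5% of those of young mice, again with no overlap. The difference of 9.78 percentage points had the smallest p that 5 against 5 mice allow (two-sided exact permutation p = 0.0079). Adjusted over 10601 genes it did not pass (0.139), and 0% of the genes passed. A gene can pass only where many genes share this smallest p, so the lack of a pass is no result about the members. Every old mouse was above every young one in 2.78% of the genes. Il1b was detected in 1.05% ± 0.33 of the cells in old and 0.54% ± 0.12 in young females at this depth (exact permutation p = 0.0238, adjusted 0.219) and Tnf in 0.85% ± 0.22 and 1.34% ± 0.47 (exact permutation p = 0.0476, adjusted 0.291, n = 5 each). Without thinning, the shares in females were 2.99% ± 0.57 and 1.63% ± 0.49 for Il1b, which then did not overlap between the ages, as in 14.3% of the genes, and 5.31% ± 0.89 and 6.39% ± 1.44 for Tnf.

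Thinning lowers every share, and in females those of Nfkbia fell from 80.4% and 61.3% to 30.1% and 20.3% in old and young mice. The smaller difference of Nfkbia in percentage points is thus not a measure of the part of depth. The difference of Nfkb1 turned. The share of Nfkb1 was higher in old females without thinning (77.4% ± 3.0 against 73.3% ± 1.2) and lower at equal depth (24.1% ± 0.8 against 25.3% ± 0.6, exact permutation p = 0.0556, n = 5 each). In old males too, the unthinned share of Nfkb1 was above that of every young male (48.4% ± 3.9 against 40.7% ± 2.5, exact permutation p = 0.0079, n = 5 each), as in 4.25% of the genes, whereas at equal depth the groups overlapped (21.7% ± 2.0 against 21.3% ± 2.0). Male Nfkbia likewise went from 51.7% ± 7.7 against 40.2% ± 2.6 to 24.1% ± 5.4 against 22.3% ± 2.2. At equal depth none of the 7 members reached an unadjusted p under 0.05 in males, where 8.38% of 9744 genes did (16.4% in females), and in no member was every old male above every young male, where 0.78% of the genes had this order by share and 0.919% by CPM.

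Cells of both pools were clustered without these genes and without the other genes of the pathway, to see in which monocytes each was found. The clusters are a description, and none was tested against the rest. Cluster 0 was led by Apoe and Sirpb1c, cluster 1 had Fn1 and Chil3 among its leading genes, clusters 2 to 4 were led by S phase genes, histones and Top2a, and Ccnb1 and Ube2c, and cluster 5 was NeuMo-like (Elane, Mpo, Prtn3 and Ctsg, together with S100a8 and S100a9). Cluster 6 was led by the MHC-II genes H2-Eb1, H2-Aa and H2-Ab1. Cluster 7 was led by Cd7 and Cd209a, and also had Flt3 and Clec9a of the conventional dendritic list among its leading genes. Cluster 8 was interferon-stimulated-like (Ifit1, Ifit3 and Isg15). Cluster 9, of 118 shallow cells led by the pituitary hormone genes Gh, Pomc and Prl, was left unnamed, cluster 10 was led by Cd209a and MHC-II genes, cluster 11 (37 cells), with T cell genes such as Cd3g and Cd3e, was left unnamed too since only 1 of the markers listed led it, and cluster 12 (15 cells) by basophil genes.

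Il1b UMIs lay mainly in the Apoe-led and the MHC-II-high clusters. In females, clusters 0 and 6 held 90.8% of the 251 Il1b UMIs, 25.1% of the UMIs of all genes and 39.8% of the cells. In cluster 6, 11.4% of the cells (95% exact interval 8.36 to 15.0) had an Il1b UMI, at a median of 8320 UMIs per cell, and 4.02% (3.25 to 4.91) in cluster 0. In the NeuMo-like cluster it was 0.677% (0.140 to 1.97) in spite of a median of 24115 UMIs, and 0 of the 36 female cells of cluster 11 had one, which allows a share of cells with a UMI of up to 8.33% (3 counts of 36, and 9.74% by the exact interval). These intervals cover counting error only. Single cells carried up to 15 Il1b UMIs, and 10 or more were found in 0.0301% of female cells. Males showed the same arrangement, with 82.6% of 23 Il1b UMIs and 23.2% of all UMIs in these clusters. With finer clusters (Leiden resolution 1.0), female Il1b was at 3.56 ± 3.08 CPM in the cluster led by Apoe and Hpgd (SD over 7 mice, 2 old and 5 young). It was at 19.7 ± 13.9 CPM in a cluster with Ace, Nr4a1 and Treml4 among its leading genes (10 mice), where the ages overlapped. In the MHC-II-led cluster of that resolution it was at 35.3 ± 30.7 CPM (8 mice, 5 old and 3 young).

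Cluster 6 was also larger in old females, at 37.9, 4.04, 4.57, 5.41 and 6.73% of the cells against 1.72, 1.61, 1.54, 3.64 and 2.13% in young females. Old female 1, which stood apart with the largest cluster 6, had the second lowest Il1b level among the old mice at 2.41 CPM, and without that mouse Il1b still passed. Without the cells of cluster 6 Il1b no longer reached the count filter. Cluster 0, with 57.0% of the female Il1b UMIs against 33.9% in cluster 6, had a lower mean share in old mice. It was 28.8% ± 13.4 against 35.2% ± 1.7 in females (exact permutation p = 0.381). In males it was 19.5% ± 11.8 against 32.1% ± 3.1 (exact permutation p = 0.0317, n = 5 each). Cluster 1, with 3.19% of the female Il1b UMIs, was also smaller in old females (11.3% ± 3.9 against 18.3% ± 2.4, exact permutation p = 0.0079). Within cluster 0 Il1b was at 9.22 ± 6.95 CPM in old and 5.31 ± 0.67 CPM in young females (n = 5 each), and the groups overlapped. In males cluster 6 held 5.34, 23.3, 5.05, 0 and 23.2% of the cells of old mice. In young males it held 1.13, 2.24, 4.96, 0 and 6.56%, and the groups overlapped. Old males 2 and 5 had the largest shares and the highest male Il1b levels (7.82 and 8.87 CPM). Young male 5 had the next largest share and 0 CPM. Whether these changes in the shares of clusters have a part in the change of Il1b was not tested.

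**Figure D3:**
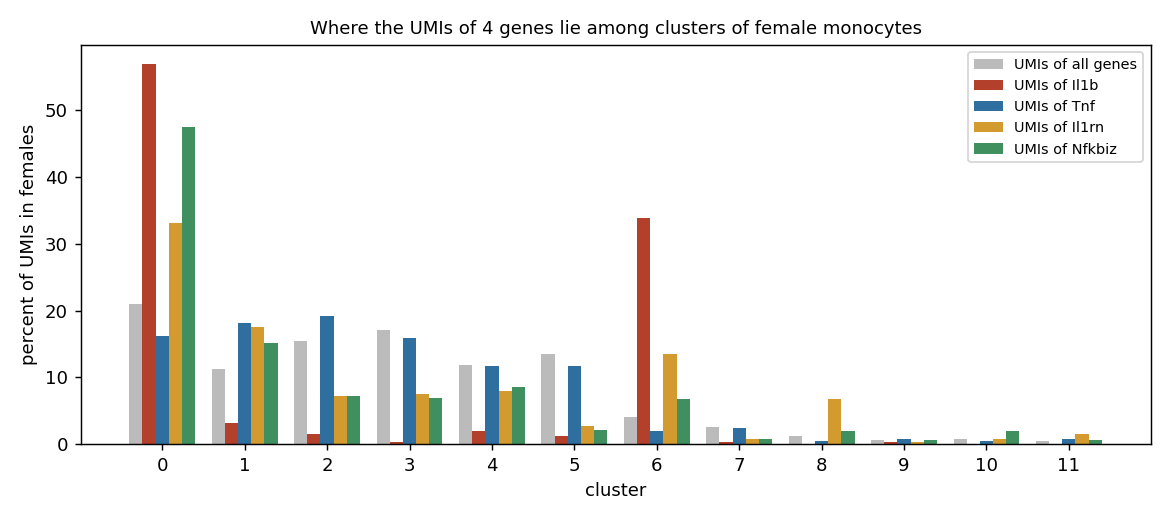
Percent of the UMIs of all genes (grey) and of the UMIs of Il1b, Tnf, Il1rn and Nfkbiz of female cells that lay in each cluster (x axis, bars from 0). Clusters 0 and 6 hold 90.8% of the Il1b UMIs and 25.1% of all UMIs, whereas clusters 2 to 5 hold 58.6% of the Tnf UMIs, 58.0% of all UMIs and 5.18% of the Il1b UMIs.

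Tnf was not concentrated in clusters 0 and 6, which held 18.2% of its 401 female UMIs. The cycling and NeuMo-like clusters 2 to 5 held 58.6% of them, close to their 58.0% of the UMIs of all genes. Over all female cells of a cluster, Tnf was at 8.11 CPM in cluster 1, at 4.32 to 6.21 CPM in clusters 2 to 5, at 3.85 CPM in cluster 0 and at 2.47 CPM in cluster 6. In males clusters 2 to 5 held 67.4% of 46 Tnf UMIs and 51.1% of all UMIs.

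Il1rn had its highest level in the interferon-stimulated-like cluster, where 13.1% of 122 female cells (95% exact interval 7.69 to 20.4) had a UMI against 3.49% (2.77 to 4.33) in cluster 0 at a similar depth, medians of 7645 and 7203.5 UMIs. In the MHC-II-high cluster it was 7.41% (4.98 to 10.5). In cluster 11, at a median of 11494.5 UMIs, 4 of 36 cells (11.1%, 3.11 to 26.1) had an Il1rn UMI, against 3.55% of all female cells. Tnfaip3 was found in 4 of these 36 cells against 5.26% of all, and Tnf in 2 of 36 (5.56%, 0.680 to 18.7) against 5.51%. Of the cells of cluster 11, 97.3% had a UMI of Ly6c2 and 70.3% of Csf1r, and the source of this RNA was not tested. The share that free RNA alone would give was not measured, and its part in the low shares of these genes was not tested. Nfkbiz was highest in cluster 10 (38.7 CPM) and cluster 0 (34.6 CPM), and lowest in the NeuMo-like cluster (2.39 CPM). Nfkb1 was highest in the Cd209a clusters 7 and 10 (257 and 252 CPM) and lowest in the NeuMo-like cluster (82.2 CPM). Tnfaip3 ranged among clusters 0 to 6 from 2.02 CPM in cluster 2 to 7.65 CPM in cluster 0.

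Nfkbia was found in every female cluster, and its level varied among them. The mean over female mice was 272 ± 99.7 CPM in cluster 6 (SD over 8 mice, 5 old and 3 young). It was 241 ± 88.7 in cluster 0 and 153 ± 57.4 in cluster 1, from 97.9 to 135 in the cycling clusters 2 to 4, and 59.3 ± 13.4 in the NeuMo-like cluster (SD over 10 mice for each of these). Within an age, clusters 6 and 0 were at 310 and 309 CPM in old and at 209 and 172 CPM in young females. In the 7 clusters with at least 4 mice of each age, the mean of old females was above that of young females. In cluster 0 Nfkbia was at 309 ± 74.5 CPM in old and 172 ± 22.3 CPM in young females, in cluster 1 at 200.1 ± 39.2 and 106 ± 17.4 CPM, and in the NeuMo-like cluster at 69.0 ± 10.1 and 49.6 ± 7.83 CPM (n = 5 each). Of these 7 clusters, every old mouse was above every young one in clusters 0, 1, 2, 3 and 5. Of the genes tested, 2.49, 2.45, 1.49, 1.38 and 0.751% had this order in these 5 clusters, in that sequence, and 1.6 and 1.76% in clusters 4 and 7. In cluster 4 the means were 172 ± 51.8 and 98.0 ± 15.9 CPM and in cluster 7 (4 mice each) 151 ± 25.1 and 106 ± 25.5 CPM, with overlap. No other member had a cluster among the 7 in which old and young females did not overlap.

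**Figure D4:**
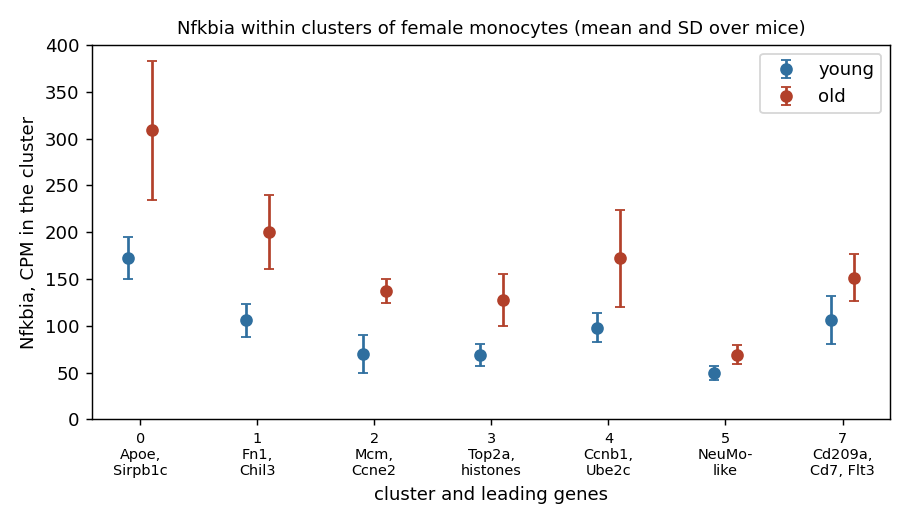
Nfkbia level (CPM within the cluster, axis from 0) in young (blue) and old (red) females for the 7 clusters with at least 4 mice of each age, as mean and SD over mice. Old means are above young means in all 7, from 309 against 172 CPM in cluster 0 to 69.0 against 49.6 CPM in the NeuMo-like cluster 5.

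Among other genes of the pathway, females changed in both directions. Of all 10074 genes tested in females 2.03% rose and 1.4% fell, the shares to set beside the count of each list here and below. The lists were chosen with earlier results of these data known, so their counts are a description. Of 13 NF-kB subunits and kinases tested, 1 rose and 0 fell, namely Myd88, the adaptor of Toll-like and IL-1 receptors (log2 change 0.33, SE 0.06, edgeR adjusted p = 0.0039). Of 19 other IkB proteins and feedback genes tested (of 20 listed), 3 rose and 2 fell. Socs3, the inhibitor of JAK-STAT signalling, rose from 2.79 ± 0.45 to 14.7 ± 4.72 CPM (log2 change 2.32, SE 0.23), Bcl3, an atypical nuclear IkB protein, from 20.4 ± 3.54 to 42.9 ± 7.23 CPM (log2 change 1.04, SE 0.12) and Zfp36l1, an mRNA decay factor, from 4.92 ± 0.61 to 9.79 ± 2.80 CPM (n = 5 each). Dusp1, a MAP kinase phosphatase, fell from 43.4 ± 5.13 to 27.4 ± 6.65 CPM (n = 5 each), and Zfp36, another mRNA decay factor, also fell (log2 change -0.38). The median log2 change of the list was 0.11, where that of all genes tested was -0.0012.

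Of 19 other cytokines, chemokines and inducible targets tested (of 30 listed), 2 rose and 2 fell. Ier3, an inducible survival gene, rose from 7.85 ± 1.42 to 16.9 ± 2.87 CPM, and Clec4e, the receptor Mincle, from 20.4 ± 2.84 to 31.0 ± 5.94 CPM, while the chemokine genes Ccl3 and Ccl4 fell from 31.3 ± 3.38 to 11.1 ± 1.02 CPM and from 2.95 ± 0.78 to 1.31 ± 0.55 CPM (n = 5 each). The log2 change of Ccl3 was -1.49 (SE 0.09, edgeR adjusted p = 5.5e-07). Il1a, Il6, Il10, Il12b and Il23a were among the 11 that did not reach the count filter.

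Of 10 receptors and partners tested (of 13 listed), Il18rap, a subunit of the IL-18 receptor, rose from 1.16 ± 0.49 to 2.49 ± 0.71 CPM and 0 fell. Of the 10 inflammasome genes, 3 rose and 0 fell: Pycard, the adaptor ASC, from 482 ± 3.87 to 571 ± 31.1 CPM, Mefv, which encodes pyrin, from 32.3 ± 2.55 to 41.9 ± 1.31 CPM, and the inflammatory caspase gene Casp4 from 24.0 ± 1.98 to 34.4 ± 6.57 CPM (n = 5 each). Casp1, which encodes the enzyme that matures IL-1 beta, and Nlrp3 were tested and did not pass. Of the 12 immediate early genes 0 rose and 4 fell (Jun, Jund, Fos and Fosb), with a median log2 change of -0.51.

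In males no gene of these lists passed. The lowest adjusted p of the lists was 0.0695 by edgeR, for Bcl3 (13.4 ± 4.24 to 31.9 ± 9.02 CPM, log2 change 1.32, SE 0.24), Fos (log2 change -0.52) and the urokinase receptor gene Plaur (log2 change -0.63), with n = 5 in each group. The median log2 change of the immediate early genes was -0.26 in males, and all 11 tested had an estimate below 0.

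**Figure D5:**
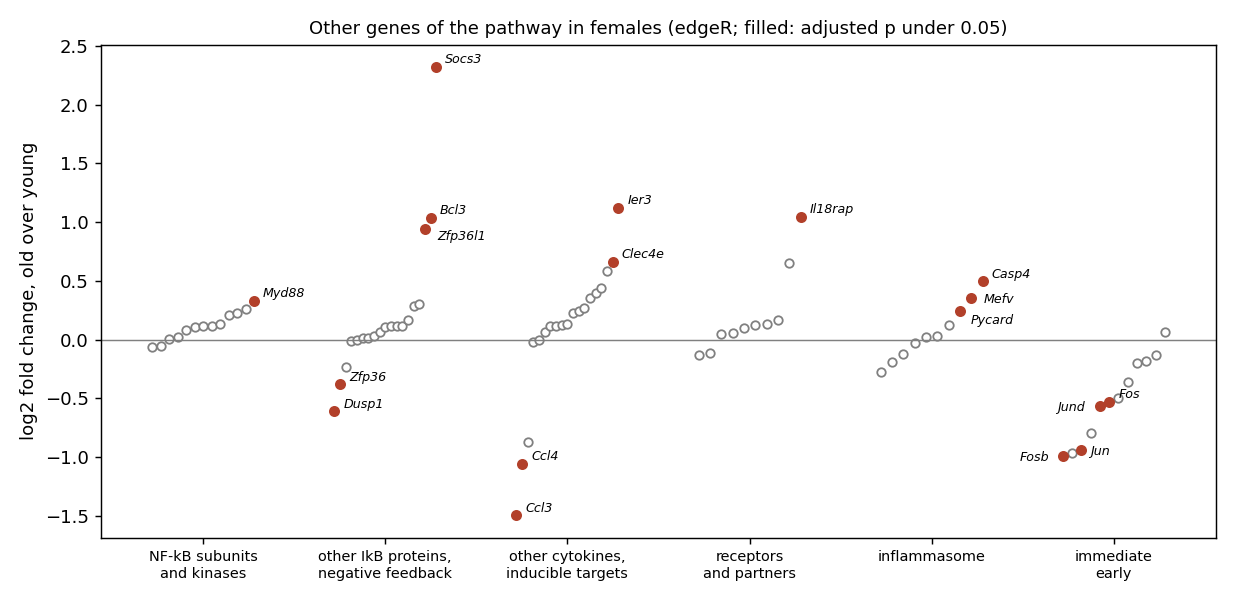
Log2 fold change of old over young females (y axis) for the other genes of the pathway, by list and in order of size, with genes past an adjusted p of 0.05 filled and named. Socs3 at 2.32 and Ccl3 at -1.49 are at the ends, and 4 immediate early genes are filled below 0.

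Detection of these genes together in the same cells is described here for some pairs. Most of the genes were found in few cells at equal depth, so these shares cannot show how closely the genes go together. At equal depth, in the mean of the 10 female mice, Il1b was detected in 1.43% of the cells with Nfkbia and in 0.57% of those without, and it was higher with Nfkbia in 10 of 10 mice. Nfkbiz was detected in 5.07% and 3.71% (9 of 10 mice) and Tnfaip3 in 1.58% and 0.99% (9 of 10 mice). Tnf differed less, at 1.25% and 1.05% (10 of 10 mice). Given Nfkbiz, Tnfaip3 was detected in 2.32% against 1.098% of the cells (10 of 10 mice). Cells of a mouse share a library and the groups compared differ in their clusters, so these values are given without a test.

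By the mean Pearson correlation over the cells of each female mouse, the genes most like Nfkbia were Ctss (cathepsin S, 0.25), Cybb (an NADPH oxidase subunit, 0.24) and Ifitm3 (0.23), and those most like Nfkbiz were Samhd1 (0.19), Cybb (0.18) and Mpeg1 (0.18). The genes nearest to Nfkb1 were Crip1 (0.14), Pid1 (0.12) and Msn (0.11). The male means were 0.12 for Cybb and 0.15 for Ifitm3 with Nfkbia. With Nfkbiz they were 0.034 for Samhd1 (rank 976 of the male genes), 0.15 for Cybb and 0.13 for Mpeg1. With Nfkb1 they were 0.11 for Crip1, 0.12 for Pid1 and 0.042 for Msn (rank 1084). The correlation of Nfkbia with Ctss was 0.17 to 0.42 in the 10 females and -0.05 to 0.38 in the males (mean 0.18). Cells of a mouse differ in depth and cluster, and the correlations were taken over all cells of a mouse, not within clusters. The part of these differences was not tested. In the sparse genes Tnf and Tnfaip3 no mean correlation reached 0.1, and Il1b and Il1rn were detected in too few cells (under 5%) for this measure.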

How the data were processed

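The deposited values were whole-number UMI counts per gene and cell barcode, made by the authors, per the labels and methods, with STAR 2.5.1 on mm10 (Ensembl annotation) and Cell Ranger 4.0.0, while the file headers name other Cell Ranger versions. Hashtag names were matched to mice by the authors' table. The male barcodes as deposited held no hashtag negatives or cells over 5% mitochondrial UMIs and were all used, each given to its leading hashtag (HTODemux called 401 of the 1227 doublets, while in 1222 the leading hashtag held at least 80%). Female barcodes were called with HTODemux (Seurat 5.3.0), and 6641 of 10433 were used, namely singlets that passed the study's limits of 200 genes and 5% mitochondrial share. The authors' removal of a few further female cells was not repeated.

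Counts were summed per mouse and tested with edgeR 4.0.16 (TMM, filterByExpr, adjusted p under 0.05), with DESeq2 1.42.0 as an alternative. On simulated counts for the female comparison (10074 genes), 91% of changes of 1 and 100% of changes of 2 on the log2 scale were recovered, and 76% and 100% for the male one (5656 genes). In each simulation 100 genes past the count filter were changed by each size. These rates thus do not cover smaller changes or the male members under the filter, and they are not the power for the members. Shares of cells were tested by exact permutation over the 252 splits of 10 mice. P-values measure the spread between mice of 1 library. Clusters were made with scanpy 1.11.5 (20 components, Leiden resolution 0.5), without doublet calling beyond the hashtags. They used a shared set of 2000 variable genes, chosen by the median of their ranks in the pools and scaled within each pool. Gene positions are from GENCODE on GRCm38, and upstream sequences from RefSeq on GRCm38.p6.

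The text names the 7 genes and, of each list of pathway genes, up to 4 past the threshold or else the gene with the lowest p. Names outside that rule were chosen after their values were seen. The members, lists and tests were chosen with earlier results of these data known. The level of 1 marker gene is not reported here.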

Additional observations from a re-analysis of the deposited data

Results flagged for a closer look

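Among the 56 groups of 5 mice examined for a value far from the others (7 genes, 2 ages, 2 pools, as CPM and as the share of cells at equal depth), 1 was found, and chance gives about 1 in 20. Tnf in young female 3 stood at 9.25 CPM, where the other young females were at 5.06 to 6.12 CPM. This mouse had the fewest cells of the females (259). Without it the log2 change of Tnf was -0.36 (edgeR adjusted p = 0.243). No difference of an age effect between the pools passed its test for these genes.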

How the results depend on the processing

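In females, 2 members passed under DESeq2, other size factors, no count filter, without cells with a marker UMI of another cell type, without clusters 9, 11 and 12, with only singlets whose call was the leading hashtag and with the mouse number as a replicate block. The number was 1 after thinning, with every barcode given to its leading hashtag, with cells drawn down to the male number and without cluster 6, and 1 to 2 when 1 mouse was left out. Nfkbia passed in each of these. Of all genes tested in females, 396 of 11572 passed by DESeq2, 343 of 10074 with other size factors and 392 of 16511 without the count filter. Without cells with a marker UMI 385 of 10022 passed, and without clusters 9, 11 and 12 362 of 10037. With singlets by both calls 355 of 10050 passed, with the block 305 of 10074 and without cluster 6 263 of 10041. The alternatives with singlets by both calls and without clusters were chosen after seeing the data. In males the number was 0 under each alternative. For the difference between the pools, tried by DESeq2, without the count filter and with 1 mouse left out, the number was also 0. For shares of cells it was 0 in both pools, where a gene can pass only if many genes share the smallest p. Nfkbia separated the ages in 5 of 11 clusters at a Leiden resolution of 1.0, against 5 of 7. In these 11 clusters every old female was above every young one in 1.02 to 2.48% of the genes tested. The ratio of Il1rn to Il1b differed by -0.84 to -0.48 in females and -1.72 to -0.30 in males when 1 mouse was left out.

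Estimates near 0 changed sign, and the cause was not tested. The log2 change of Nfkbiz was 0.15 in females with cells drawn down and 0.022 in males without cells with a marker UMI, that of Nfkb1 in males was -0.076 with HTODemux singlets and -0.0093 without cluster 6, and the difference between the pools for Tnfaip3 was -0.036 by DESeq2. Unthinned shares turned to 1.43 percentage points higher in old mice for Nfkbiz and 4.09 for Nfkb1 in females, and to 1.23 for Nfkbiz and 0.29 for Tnfaip3 in males. With 1 mouse left out, log2 changes ranged from -0.14 to 0.063 (Nfkbiz, females) and -0.24 to 0.13 (Nfkbiz, males), differences between the pools from -0.45 to 0.50 (Il1b), -0.17 to 0.21 (Nfkbiz) and -0.16 to 0.26 (Tnfaip3), and male share differences from -0.65 to 0.066 (Tnf), -0.67 to 0.36 (Nfkbiz) and -0.22 to 1.13 (Nfkb1). Mice of the same number did not deviate together (correlations of -0.035 to 0.072), so the block only shares a number: it gave 305 calls in females, against 345, and 1 in males, against 0. Over all genes, females had 187 calls of 7459 tested after thinning and 45 of 7612 with cells drawn down. They had 542 of 10622 with every barcode used and 194 to 522 of 10128 to 10168 with 1 mouse left out. Males had 23 calls by DESeq2, 95 without the count filter, 36 without cluster 6 and 0 to 39 with 1 mouse left out (39 without old male 1, 24 without old male 4), and the difference between the pools had 1 to 5, against 2.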
